A study of Mus musculus with 6 samples.

Results

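The proteasome is the barrel-shaped protease that degrades ubiquitin-tagged proteins, and its subunits are encoded by a family of Psm genes. The genes described here are the protein-coding rows of the count table whose symbols begin with Psm, a letter from a to g and a number, without the immunoproteasome genes Psmb8, Psmb9 and Psmb10. They were 47 of the 21606 genes in the table, and the choice used symbols only, not measured values. RNA had been measured in ALDHbr cells, bone marrow cells sorted for a high activity of aldehyde dehydrogenase, from wild-type C57BL/6 mice, a common inbred strain, in 3 male and 3 female libraries. A sort for this activity enriches progenitor cells. The libraries were made by BRB-seq, a bulk method that barcodes each sample at reverse transcription and reads the 3' ends of transcripts. No age, treatment or pooling of animals is given in the labels, and nothing there ties each replicate to its own animal, so the spread behind every p-value is that of these libraries and could be technical.

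The core particle is a stack of alpha and beta rings, of which the alpha rings form the gate and the beta rings carry the protease sites. The regulatory particle caps it: its base of ATPases unfolds substrates, and its lid removes ubiquitin from them. Other activators can replace this cap, assembly chaperones help to build each particle, and hematopoietic cells also use immunoproteasome beta subunits that favour peptides for antigen presentation. By role, the 47 genes comprised 8 alpha and 8 beta genes of the core, 6 ATPases and 3 other genes of the base, 8 lid genes, 5 activator genes, 1 inhibitor gene, 7 assembly chaperone genes, and Psmc3ip, a meiotic recombination gene that the symbol rule takes in although it encodes no subunit.

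Total counts ran from 679724 to 880074 in the male libraries and from 1199551 to 1475224 in the female ones. The Y-linked genes Ddx3y and Eif2s3y had at least 51 and 49 counts in every male library and 0 in the female libraries, while Xist had 2 counts in male libraries together and 773 in female ones. Genes of immature myeloid cells were abundant in all libraries: Mpo, the myeloperoxidase of primary granules, averaged 6332 ± 284 counts per 1000000 (CPM) in males and 7639 ± 224 in females (SD, n = 3 each). The 8 myeloid progenitor markers summed to between 13626 and 14704 CPM in males and between 15189 and 15858 in females, and none passed. Their directions were mixed: 4 of the 8 had fold changes above 0, and the median log2 fold change was -0.01. In Flt3, at a log2 fold change of 0.37, every male library lay above every female one, as in 7.57% of all tested genes. In Mpo and Elane, at -0.27 and -0.24, every male library lay below every female one, as in 8.03% of all tested genes. The remaining markers of this list overlapped between the sexes. The 8 erythroid and megakaryocyte markers summed to between 309.7 and 471 CPM in males and between 112 and 135 in females, with all 3 tested members higher in males. The 8 B and plasma cell markers summed to between 6306 and 7349 CPM in males and between 8076 and 9341 in females, with Ms4a1 lower in males among 7 tested. Most of that sum was Igkc, which averaged 5760.3 ± 434 CPM in males and 7496 ± 674 in females (SD, n = 3 each) and did not pass. In Igkc, Sdc1, Cd79b and Ms4a1 every male library lay below every female one, as in 8.03% of all tested genes. Their log2 fold changes were -0.38, -0.44, -0.25 and -2.36, and only Ms4a1 passed. Jchain, Mzb1 and Xbp1 overlapped between the sexes, at log2 fold changes of -0.09, -0.15 and 0.02. The 6 lung epithelium markers summed to between 227 and 454 CPM in males and between 142 and 201 in females. None of 5 tested passed, but all 5 had fold changes above 0, with a median log2 fold change of 0.92. In Sftpc, Sftpb and Sftpd every male library lay above every female one, as in 7.57% of all tested genes. Male replicate 2 was the highest library in each of the 5. Lung samples not analysed here shared the pooled library, and the source of these counts was not tested. The T and natural killer cell markers summed to between 154 and 169.9 CPM in males and between 129 and 145 in females, nearly all from Nkg7, which did not pass (edgeR's adjusted p = 0.422); Cd3d and Klrb1c had 1 count each and Cd3e was not listed. The summed monocyte and macrophage markers overlapped between the sexes. Across genes, the log2 CPM of male replicate 1 correlated on average by 0.956 with the other male libraries and by 0.965 with the female ones, while its Y-linked genes fitted its label. The same correlations were 0.9604 with males and 0.9607 with females for male replicate 3, and male replicate 2 lay closer to its own sex. The part of these markers and of this library in the proteasome values was not tested, and in bulk RNA fewer cells of a type and less RNA per cell cannot be told apart.

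No proteasome gene differed between male and female cells past the threshold. Of the 47 genes, 45 had enough counts to be tested, and 0 rose and 0 fell by edgeR's quasi-likelihood test at a Benjamini-Hochberg adjusted p of 0.05; over all 8460 tested genes, 0.579% passed. The smallest adjusted p of a proteasome gene was 0.161, for Psmc6. At an unadjusted p under 0.05, edgeR gave 7 of the 45 genes, all higher in males, where 6.83% of all tested genes were higher in males at that level and 4.50% lower. DESeq2 and limma-voom also called 0, with 5 and 6 genes at an unadjusted p under 0.05, a level reached by 5.90% of all tested genes in DESeq2 and 11.0% in limma-voom. The 45 tested genes lay on 16 chromosomes.

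The estimates were narrow. The standard error of the log2 fold change of male minus female was between 0.12 and 0.43, with a median of 0.13 against 0.20 over all tested genes. For 44 of the 45 genes, the 95% interval of the log2 fold change lay within 1 of 0, that is within a doubling or halving, and for 30 it lay within 0.5 of 0. The exception to the wider bound was Psmb7, with an interval from -1.17 to 0.60. The median log2 fold change was 0.15, against -0.003 over all tested genes, and 35 of 45 fold changes lay above 0, against 49.3% of all tested genes. With libraries scaled by library size only, the median was 0.05 (-0.092 over all tested genes) and 27 of 45 lay above 0. Without male replicate 2 the median was 0.06 and again 27 lay above 0. Without male replicate 1 it was 0.21 and 8 genes were called higher in males, where 3.75% of all tested genes were.

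**Figure D1:**
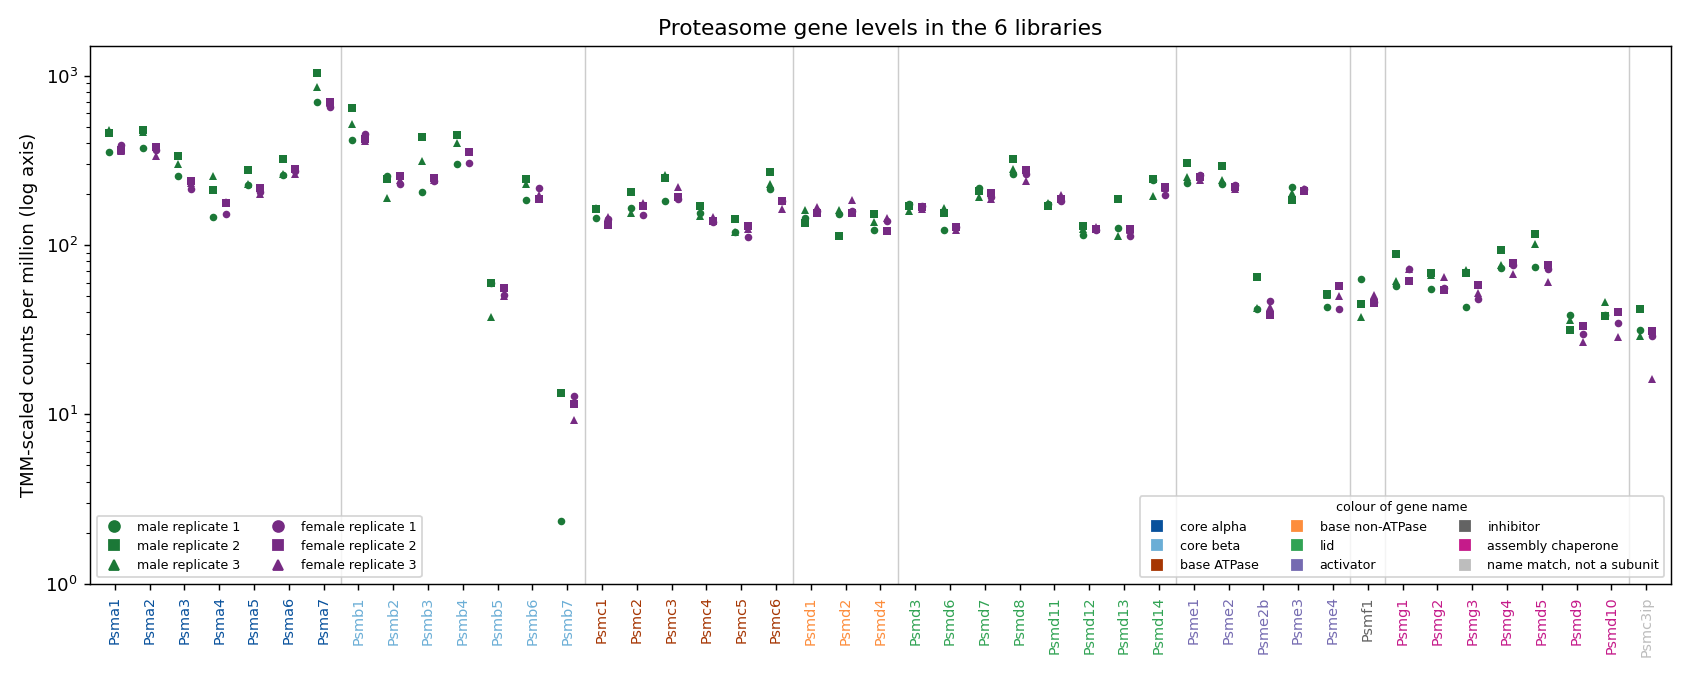
Level of each of the 45 tested proteasome genes in TMM-scaled CPM on a log axis, with the 3 male libraries in green left of the 3 female libraries in purple; the colour of the gene name gives the role. Psma7 is highest in CPM, from 654 to 1036, and Psmb7 lowest, from 2.33 to 13.3.

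**Figure D2:**
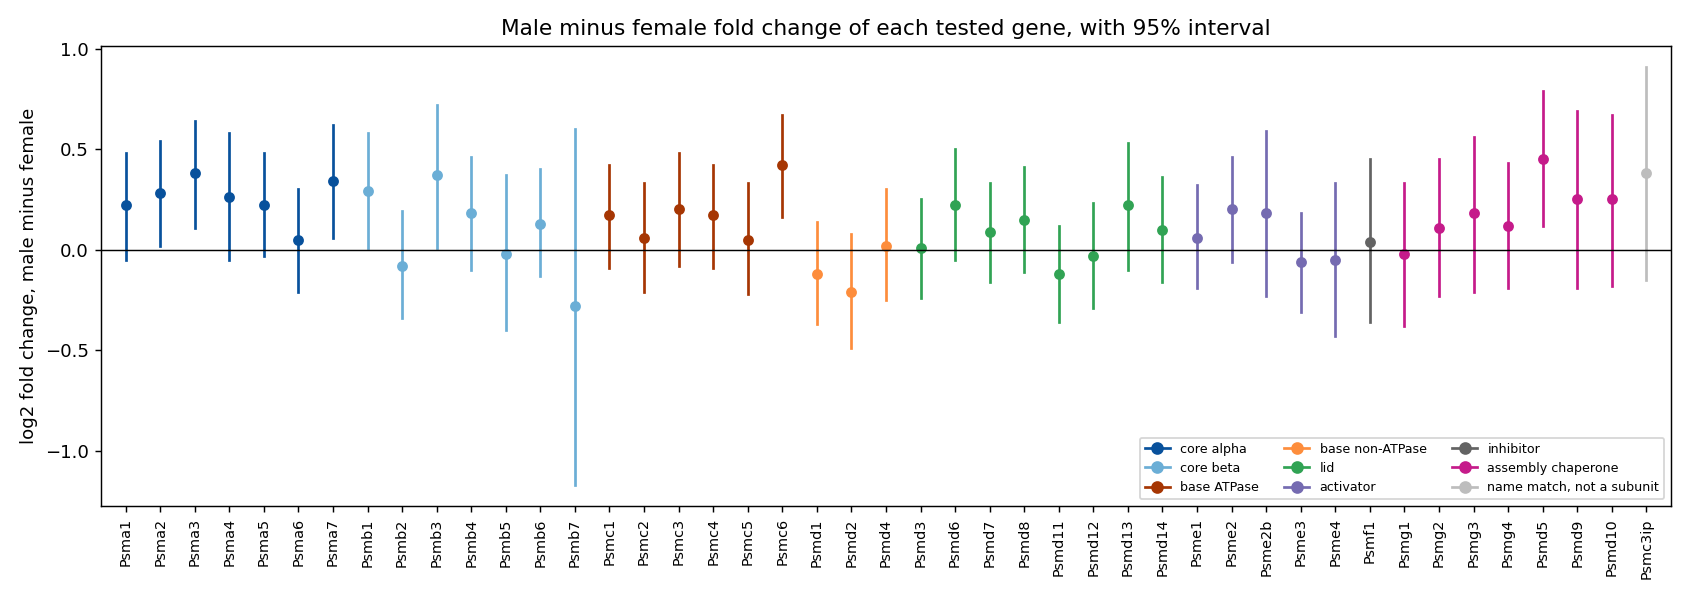
Log2 fold change, male minus female, of each tested gene with its 95% interval (edgeR's quasi-likelihood fit, 3 libraries per sex); points are estimates and lines intervals, coloured by role. The alpha genes and the base ATPases all lie above 0 (scaled by library size only, Psma6, Psmc2 and Psmc5 lie at -0.05, -0.03 and -0.04, and without male replicate 2 at -0.06, -0.05 and -0.03). Of the 8 lid genes 6 lie above 0, from -0.12 to 0.22 with a median of 0.09.

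All 7 tested alpha genes of the core had fold changes above 0, from 0.05 for Psma6 to 0.38 for Psma3, and none passed; Psma6 was at -0.05 when scaled by library size only and at -0.06 without male replicate 2. Psma7, an alpha-ring subunit (chromosome 2, 180036374 to 180042433, minus strand, GRCm38), had 695, 1036 and 859 CPM in male replicates 1, 2 and 3 and 654, 699 and 688 CPM in female replicates 1, 2 and 3. Male replicates 2 and 3 stood above every female library, while male replicate 1 lay within the female range. The log2 fold change was 0.34 ± 0.13 (SE; adjusted p = 0.315). Psma3 (chromosome 12, 70974621 to 70996347, plus strand), another subunit of the ring, had 255, 334 and 300 CPM in males and 213, 238 and 232 in females, so the sexes did not overlap. Its log2 fold change was 0.38 ± 0.13 (adjusted p = 0.228). Psma5, with 227, 276 and 229 CPM in males and 205, 218 and 200.1 in females, did not overlap either, at a log2 fold change of 0.22 ± 0.12 (adjusted p = 0.515). The remaining 4 overlapped between the sexes: Psma1 ranged from 355 to 477 CPM, Psma2 from 336 to 477, Psma4 from 146 to 255 and Psma6 from 259 to 324.

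The beta genes were less even. Their log2 fold changes ran from -0.28 to 0.37 with a median of 0.13, 4 of 7 lay above 0, none passed, and the sexes overlapped in each. Psmb1, a beta subunit without a protease site (chromosome 17, 15475021 to 15499751, minus strand), had 418, 649 and 521 CPM in males and 450.2, 424 and 414 in females. The lowest male library lay under the highest female one, and the log2 fold change was 0.29 ± 0.14 (adjusted p = 0.413). Psmb3, also without a protease site, had the largest ratio of highest to lowest library, 2.1, among genes of more than 100 CPM in every library: 206, 432 and 312 CPM in males against 238, 249.9 and 241 in females. Male replicate 1 was the lowest of the 6 libraries and male replicate 2 the highest. Psmb2 ranged from 190.4 to 256 CPM and Psmb4 from 303 to 449.

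The standard protease subunits are encoded by Psmb5, Psmb6 and Psmb7, which cut after hydrophobic, acidic and basic residues. Psmb6 had 185, 244 and 230.1 CPM in males and 217, 186 and 197 in females. Psmb5 had 59.4, 59.9 and 37.4 CPM in males and 50.7, 55.5 and 50 in females. Neither separated the sexes, with log2 fold changes of 0.13 ± 0.13 and -0.02 ± 0.19. Psmb7 (chromosome 2, 38588036 to 38644087, minus strand) was counted rarely, with 2, 8 and 11 counts in the male libraries and 16, 17 and 12 in the female ones. Its male to female ratio of scaled counts was 0.819 (exact 95% binomial interval 0.463 to 1.40, counting error only), and male replicate 1 was lowest; without it the fitted log2 fold change was 0.24 in place of -0.28. Over the 6 libraries it had 66 counts, where the next lowest tested core gene, Psmb5, had 328. The last 300 bases of its coding transcript share bases with exons of Nek6 on the opposite strand, which had 107 counts. The sources used here do not give the strand setting of the counting, and the part of this overlap in the low count was not tested.

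Transcription of proteasome genes in mammals is raised by the factor encoded by Nfe2l1, which binds antioxidant response elements. The promoters of Psma7, of the protease subunits Psmb6 and Psmb5 and of the ATPase Psmc6 are shown because they are the most abundant core gene, 2 protease genes with letters of that element near the start, and the gene with the smallest p. Each is 300 bases of GRCm38.p6 from RefSeq, from 250 before to 50 after the annotated start, written 5' to 3' on the gene's strand. Capitals mark TGACNNNGC, the core of the antioxidant response element, in Psmb6, Psmb5 and Psmc6, and CCAAT, the NF-Y box, in Psma7, on either strand.
Psma7, chr2:180042415-180042714, minus strand: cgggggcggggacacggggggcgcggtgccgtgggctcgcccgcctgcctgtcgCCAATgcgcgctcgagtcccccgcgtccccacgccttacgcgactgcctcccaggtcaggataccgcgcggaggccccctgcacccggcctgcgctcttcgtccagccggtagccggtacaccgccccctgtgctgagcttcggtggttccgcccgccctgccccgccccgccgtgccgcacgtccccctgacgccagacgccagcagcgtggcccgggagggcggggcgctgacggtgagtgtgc
Psmb6, chr11:70525107-70525406, plus strand: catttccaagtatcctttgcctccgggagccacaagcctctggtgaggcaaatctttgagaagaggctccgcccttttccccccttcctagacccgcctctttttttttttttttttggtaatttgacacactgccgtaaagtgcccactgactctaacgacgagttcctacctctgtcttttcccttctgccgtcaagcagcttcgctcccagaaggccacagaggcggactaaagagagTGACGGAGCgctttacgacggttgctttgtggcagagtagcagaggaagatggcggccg
Psmb5, chr14:54617946-54618245, minus strand: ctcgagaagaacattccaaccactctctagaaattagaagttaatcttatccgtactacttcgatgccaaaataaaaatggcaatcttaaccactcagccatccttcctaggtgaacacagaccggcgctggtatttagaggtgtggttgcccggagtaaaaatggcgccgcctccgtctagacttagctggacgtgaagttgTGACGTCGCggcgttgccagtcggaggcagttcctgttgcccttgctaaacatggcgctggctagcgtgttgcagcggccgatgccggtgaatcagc
Psmc6, chr14:45329574-45329873, plus strand: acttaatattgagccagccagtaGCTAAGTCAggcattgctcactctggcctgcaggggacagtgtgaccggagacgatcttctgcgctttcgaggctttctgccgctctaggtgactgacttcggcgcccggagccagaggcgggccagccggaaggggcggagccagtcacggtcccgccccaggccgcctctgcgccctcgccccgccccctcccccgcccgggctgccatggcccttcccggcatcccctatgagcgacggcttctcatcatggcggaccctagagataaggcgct
The TGACNNNGC match began 9 bases before the start in Psmb6, 47 before it in Psmb5 and 227 before it, on the other strand, in Psmc6. Of the 39 proteasome genes with a window, 6 (15.4%) held TGACNNNGC, namely Psmb5, Psmb6, Psmc6, Psmd9, Psmd12 and Psme4, against 14.0% of all 27025 genes with a window. CCAAT stood in 14 (35.9%), against 41.1%. Both shares lay near those of all promoters, and both strands were searched; no proteasome gene held both motifs. No window was given for Psma8, Psmb1, Psmb2, Psmb7, Psmc3, Psmd3, Psmd7 and Psmg2.

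The 6 ATPases of the base, which form the ring that unfolds substrates, all had fold changes above 0, with a median of 0.17, and none passed; scaled by library size only, Psmc2 and Psmc5 were at -0.03 and -0.04, and without male replicate 2 at -0.05 and -0.03. Psmc6 (chromosome 14, 45329788 to 45349705, plus strand), whose promoter is shown above, had 214, 269 and 228 CPM in males and 183, 182 and 164 in females. Every male library lay above every female one, and the log2 fold change was 0.42 ± 0.12 (95% interval 0.16 to 0.67; adjusted p = 0.161). Psmc4 also separated the sexes, by a small margin, with 155, 171 and 148 CPM in males and 136, 138 and 147 in females and a log2 fold change of 0.17 ± 0.12 (adjusted p = 0.659). Psmc3 had 182, 249 and 258 CPM in males and 188, 191 and 219 in females, which overlapped; exons of Slc39a13 on the opposite strand reach the end of 1 of its 3 coding transcripts. Psmc1 ranged from 131 to 166 CPM, Psmc2 from 151 to 205 and Psmc5 from 111 to 143.

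The large scaffold subunits of the base had fold changes below 0, and neither passed. Psmd2, a docking site for ubiquitin carriers (chromosome 16, 20651652 to 20663414, plus strand), had 153, 113 and 161 CPM in males and 159, 154 and 185 in females. Male replicate 2 was the lowest of all libraries, and the log2 fold change was -0.21 ± 0.14 (adjusted p = 0.608). Psmd1 had 144, 135 and 160.3 CPM in males and 159, 154 and 167 in females, which overlapped. Its log2 fold change was -0.12 ± 0.12. Exons of Gm21972, which had 0 counts, reach the end of the Psmd1 coding transcript on the same strand. The part of this overlap in the Psmd1 counts was not tested. Psmd4, a receptor for ubiquitin chains, ranged from 121 to 153 CPM.

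The lid genes were the most even of the large groups. Their fold changes lay between -0.12 and 0.22 with a median of 0.09, none passed, and the median gene's highest library was 1.21 times its lowest, against 1.52 in the core and 1.60 over all tested genes. Psmd8, the most abundant in CPM (chromosome 7, 29174188 to 29180701, minus strand), had 264, 323 and 282 CPM in males and 264, 276 and 240.1 in females, which overlapped. Psmd3 was the steadiest of all 45, with 175, 171 and 158 CPM in males and 171, 167 and 163 in females. Psmd11 was the only tested gene with every male library below every female one: 174, 171 and 176 CPM in males against 181, 187 and 197 in females. Its log2 fold change was -0.12 ± 0.12 (95% interval -0.36 to 0.12; adjusted p = 0.776). Psmd14, the enzyme of the lid that cuts ubiquitin from substrates, ranged from 195 to 244 CPM. Psmd6 ranged from 122 to 166 CPM, Psmd7 from 186 to 217, Psmd12 from 114 to 129.7 and Psmd13 from 113 to 186, with the highest value of Psmd13 in male replicate 2. In all, every male library lay above every female one in 5 of 45 genes (Psma3, Psma5, Psmc4, Psmc6 and Psme2), where 7.57% of all tested genes did so, and below in 1 of 45, where 8.03% did.

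Among the activators, Psme1 and Psme2 encode the partners of a ring that is induced by interferon and opens the core gate. They lie 5911 bases apart on chromosome 14, on opposite strands. Psme1 had 234, 306 and 253 CPM in males and 260.1, 251 and 242 in females, which overlapped (log2 fold change 0.06 ± 0.13, and -0.03 scaled by library size only); exons of Emc9 on the opposite strand reach the end of 1 of its 3 coding transcripts. Psme2 had 229, 291 and 243 CPM in males and 226, 220.1 and 215 in females. Its sexes did not overlap, with a log2 fold change of 0.20 ± 0.12 (adjusted p = 0.574). Psme2b, on chromosome 11, is a near copy of Psme2: 789 of 794 aligned transcript bases (99.4%) were identical, so reads could be split between them. Psme2b ranged from 38.6 to 64.9 CPM. The values of both genes are therefore uncertain, including the separation of the sexes in Psme2. Psme3, the nuclear member of the family, stayed between 185 and 219 CPM, and Psme4, a large nuclear activator, between 41.9 and 56.9. Psmf1, an inhibitor of the core in vitro, had 62.9, 44.9 and 37.4 CPM in males and 45.9, 45.4 and 50.8 in females. The males held both the highest and the lowest value of Psmf1, and its log2 fold change was 0.04 ± 0.20, with -0.04 scaled by library size only and -0.22 without male replicate 1.

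Of the 7 assembly chaperone genes, 6 had fold changes above 0 and none passed. Psmd5, a chaperone of the base (chromosome 2, 34849734 to 34874968, minus strand), had the largest fold change of all 45 genes, with 74.5, 116 and 101 CPM in males and 72.5, 76.5 and 60.8 in females. Male replicate 1 lay inside the female range, and the log2 fold change was 0.45 ± 0.16 (95% interval 0.12 to 0.79; adjusted p = 0.263). Psmd9 and Psmd10, the other chaperones of the base, ranged from 26.9 to 38.4 and from 28.5 to 45.8 CPM; Psmd10 was the only X-linked gene of the family, at a log2 fold change of 0.25 ± 0.21. Psmg1, Psmg2, Psmg3 and Psmg4, which assemble the alpha ring, ranged from 57.1 to 88.1, from 54.2 to 68.2, from 43.1 to 71.1 and from 67.0 to 93.1 CPM. Psmc3ip ranged from 16.2 to 41.6 CPM, with a log2 fold change of 0.38 ± 0.26, and exons of Mlx on the opposite strand reach the end of its coding transcript.

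Both tissue-restricted core genes were at or near 0. Psma8, an alpha subunit of the testis, had 5, 1 and 3 counts in males and 9, 12 and 8 in females. The highest male count lay below the lowest female one, while the male libraries also held fewer counts in total. In CPM, which scales for depth, the sexes did not overlap either, at 5.82, 1.66 and 3.61 in males and 7.25, 8.13 and 6.16 in females. The male to female ratio of scaled counts was 0.545 (exact 95% binomial interval 0.227 to 1.18), and the gene had too few counts to be tested. Psmb11, a beta subunit of the thymic cortex, had 1 count, in male replicate 1, and 0 in the other libraries.

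The immunoproteasome genes, set beside the standard protease genes they replace, also did not separate the sexes. Psmb8, the partner of Psmb5, averaged 549 ± 104 CPM in males and 523 ± 25.7 in females (SD, n = 3 each), Psmb9 165 ± 21.4 in males and 182 ± 15.4 in females, and Psmb10 187 ± 21.2 in males and 163 ± 1.10 in females. The CPM of Psmb8 over that of Psmb5, with no division by length since the reads are 3' tags, was 7.57, 11.0 and 14.5 in the male libraries and 9.73, 9.77 and 10.6 in the female ones. The CPM of Psmb9 over that of Psmb6 was 0.786, 0.769 and 0.702 in males and 0.888, 1.01 and 0.832 in females. Every male value of that ratio lay below every female one, at the smallest p an exact two-sided permutation test of 3 against 3 can give (p = 0.1; 0.3 adjusted over 3 ratios). For Psmb8 over Psmb5 the same exact test gave p = 0.7. The ratio of Psmb10 to Psmb7 rested on the low counts of Psmb7, with 70.0, 14.7 and 15.3 in males and 12.7, 14.3 and 17.6 in females (exact permutation p = 0.4).

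The spread within the male group differed between the core and the regulatory particle. Core genes took 0.384%, 0.461% and 0.430% of all counts in male replicates 1, 2 and 3 and 0.389%, 0.390% and 0.381% in female replicates 1, 2 and 3. Male replicates 2 and 3 stood above the other 4 libraries, and male replicate 1 lay within the female range. Genes of the regulatory particle took 0.290%, 0.282% and 0.277% of all counts in males and 0.283%, 0.280% and 0.288% in females, which overlapped. In TMM-scaled CPM the regulatory particle summed to 2834, 3191 and 2939 in males and 2736, 2799 and 2851 in females. On that scale its male replicates 2 and 3 also stood above every female library, and male replicate 1 lay within the female range. The core summed to 3746, 5212 and 4557 CPM in males and 3759, 3900.2 and 3767 in females. The ratio of summed CPM, core over regulatory particle, was 1.32, 1.63 and 1.55 in males and 1.37, 1.39 and 1.32 in females. Summed over all 47 genes, the share was 0.836% ± 0.0370 in males and 0.796% ± 0.00576 in females (SD, n = 3 each).

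**Figure D3:**
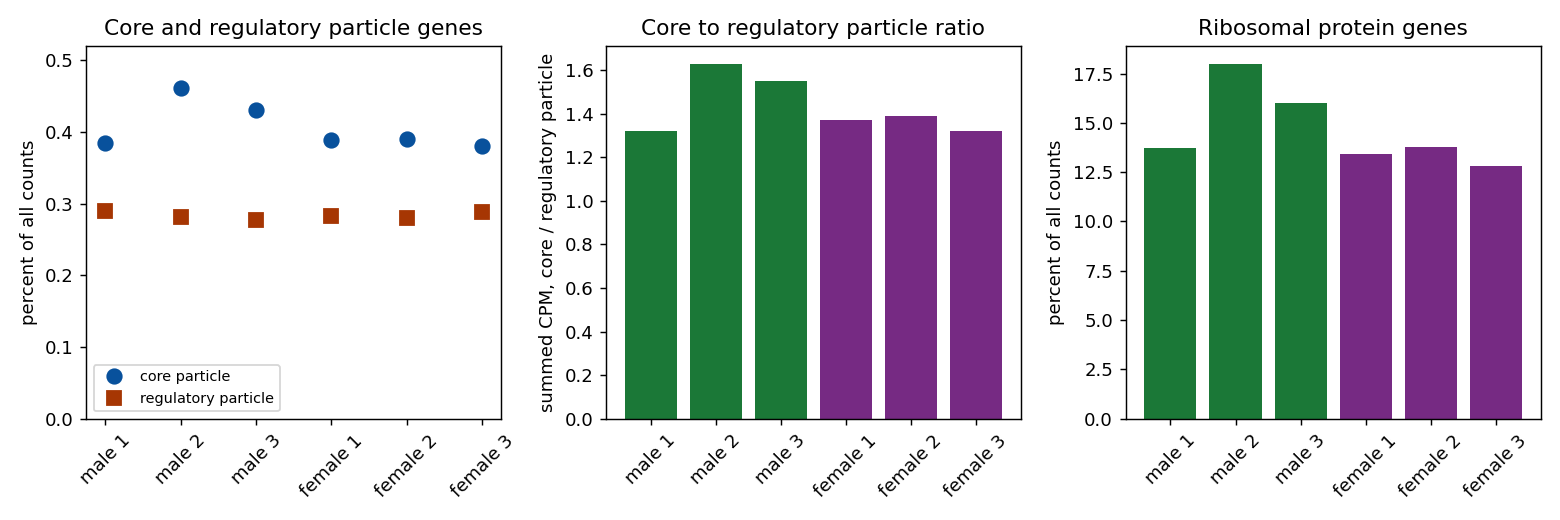
Left, percent of all counts in core (circles) and regulatory particle (squares) genes in each library; middle, summed CPM of the core over that of the regulatory particle; right, percent of all counts in ribosomal protein genes (green, male; purple, female). The core share and the ribosomal share are highest in male replicates 2 and 3, at 0.461% and 0.430% and at 18.0% and 16.0%.

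Male replicate 2 was the highest of the 6 libraries for 28 of 45 proteasome genes (62.2%), where it was the highest for 26.1% of all tested genes. Its share was 11 of 14 in the core and 9 of 17 in the regulatory particle. All 14 tested core genes lay above their own mean over the libraries there, by a median of 0.28 on the log2 scale. Psmd1 and Psmd2, with the longest transcripts of the regulatory particle, lay 0.18 and 0.43 below theirs. Psme4 and Psmd5, with the longest transcripts of all 45 genes, lay 0.08 and 0.5 above theirs. The share of the ribosomal protein genes was also highest in male replicates 2 and 3. These genes took 13.7%, 18.0% and 16.0% of counts in males and 13.4%, 13.8% and 12.8% in females. The median transcript length was 1120 bases in the core, 1591 in the regulatory particle and 2599.5 over all tested genes. In male replicate 2 the deviation also went with transcript length. The 22 proteasome genes with transcripts under 1382 bases deviated there by a median of 0.26 and the 23 longer ones by 0.13. Over all tested genes the medians were 0.24 and -0.05. Spearman's rho of deviation and length across genes was -0.43 for the 45 proteasome genes and -0.43 for all 8460, as a description of genes that share a library. Male replicate 3 did not have this pattern among the proteasome genes, with medians of 0.02 for the shorter and 0.07 for the longer ones. Its rho was 0.08 for the 45 genes and -0.16 for all 8460. Male replicate 1 went the other way, with medians of -0.13 for the shorter proteasome genes and -0.04 for the longer ones. The rho of male replicate 1 was 0.32 for the 45 genes and 0.18 for all 8460. Male replicate 2 also had the fewest counts and the most mitochondrial ribosomal RNA (5.27% of counts). The part of length, depth and RNA quality in these values was not tested.

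**Figure D4:**
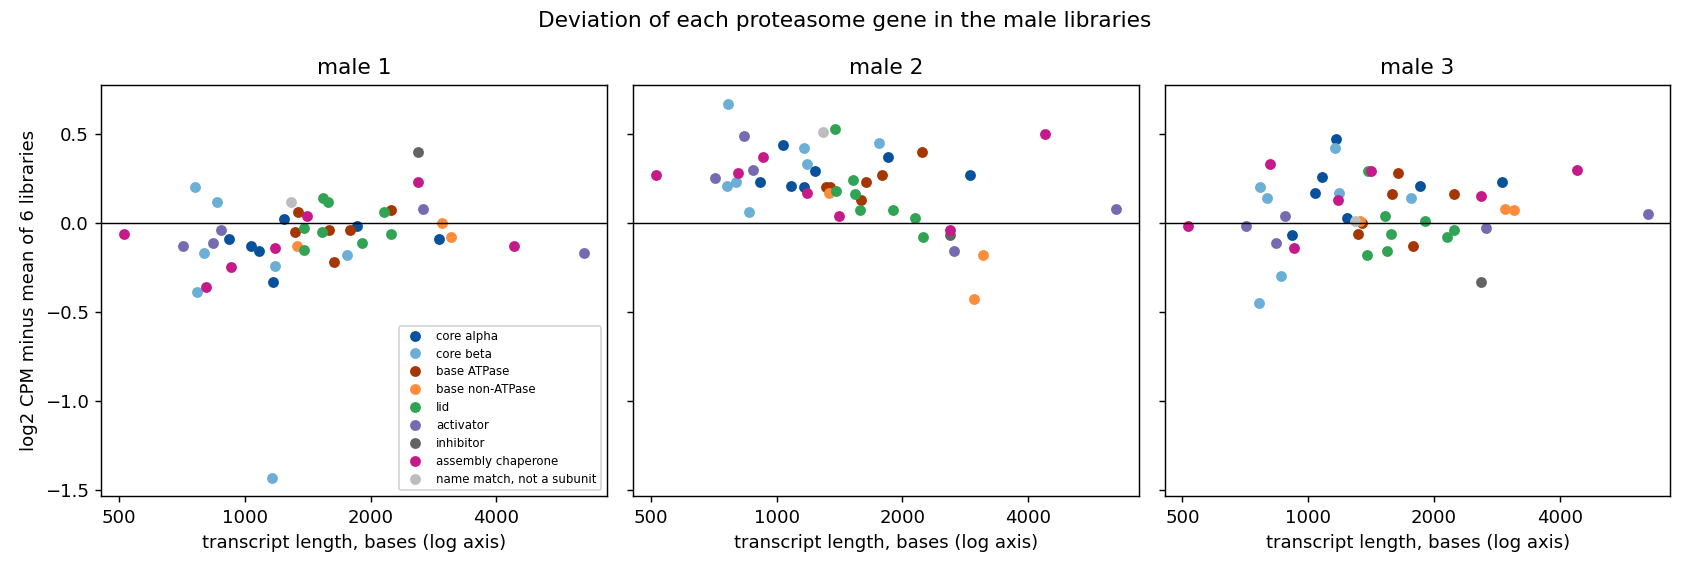
Deviation of each tested proteasome gene in log2 CPM from its mean over the 6 libraries, against the median length of its coding transcripts on a log axis, in male replicates 1, 2 and 3, coloured by role. In male replicate 2, 39 of 45 genes lie above 0. Psmd1 and Psmd2 lie below it there, while Psme4 and Psmd5, with the longest transcripts of the 45, lie above it. In male replicate 1, 32 lie below 0.

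The 8 genes called without male replicate 1 were Psmb3, Psma7, Psma3, Psmd5, Psmc6, Psmb1, Psma4 and Psma2. Psmb3 had the smallest adjusted p, 0.00397, at a log2 fold change of 0.61 ± 0.13, and Psma2 the largest, 0.0468, at 0.39 ± 0.11 (edgeR's quasi-likelihood test). They comprised 4 alpha genes, 2 beta genes, an ATPase of the base and a base chaperone, and no lid gene or activator. With male replicate 2 left out instead, the median log2 fold change was 0.11 in the core, in place of 0.22, and -0.00 in the regulatory particle, in place of 0.09.

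Genes that work with the proteasome but carry other symbols did not pass either. Of the 8 tested genes of its particles and their assembly, 0 passed by edgeR, with a median log2 fold change of 0.03. An unadjusted p under 0.05 was reached by 1 of the 8, against 11.3% of all tested genes. Usp14, a deubiquitinase bound to the base, had 102, 83.2 and 68.7 CPM in males and 108, 106 and 109 in females (log2 fold change -0.34 ± 0.15, edgeR's adjusted p = 0.381). Every male library lay below every female one, as in 8.03% of all tested genes. Sem1, a small lid subunit, Pomp, which helps to assemble the core, and Txnl1, a thioredoxin of the regulatory particle, had log2 fold changes of 0.24, 0.22 and 0.16. Of the 15 tested genes of ubiquitin supply, activation and delivery, 0 passed, with a median of 0.06. An unadjusted p under 0.05 was reached by 3 of the 15, again against 11.3% of all tested genes. Ube3a, a ubiquitin ligase, averaged 105 ± 25.5 CPM in males and 71.1 ± 17.3 in females, and Rps27a, which encodes ubiquitin fused to a ribosomal protein, 2191 ± 601 in males and 1543 ± 30.2 in females (SD, n = 3 each; edgeR's adjusted p = 0.235 for Ube3a and 0.195 for Rps27a). Vcp and Nploc4, which extract tagged proteins and hand them on, had every male library below every female one, as 8.03% of all tested genes did. Their log2 fold changes were -0.23 ± 0.12 and -0.36 ± 0.17 (edgeR's adjusted p = 0.482 and 0.436). Of 5 tested genes that control proteasome transcription, 0 passed, with a median of -0.01. An unadjusted p under 0.05 was reached by 0 of the 5, against 11.3% of all tested genes. The factor Nfe2l1 averaged 41.4 ± 11.8 CPM in males and 50.1 ± 2.31 in females, and Ddi2, the protease that activates it, 92.6 ± 15.8 in males and 108 ± 7.89 in females. Mafg, a small partner of Nfe2l1, and Ngly1, which removes sugars from it, both had log2 fold changes of 0.13.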

How the data were processed

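The authors deposited unnormalised whole-number counts for each gene, per the file headers and the values. The submitters' processing notes name UMI-tools, Trim Galore 0.6.7, featureCounts 2.0.1, HISAT2 2.2.1 and DESeq2 beside the builds GRCh38 and GRCm38, with no roles. Collapsing of molecular identifiers and the strand setting are not given there. Libraries were grouped by the sex in their titles, and none was a copy of another (chi-square over degrees of freedom between 1.98 and 4.09 within a sex).

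Genes kept by filterByExpr (minimum count 10, minimum total 15; 8460 of 21606) were tested for male minus female with edgeR 4.0.16 in R 4.3.3 (TMM scaling, quasi-likelihood F test, Benjamini-Hochberg over all tested genes), checked on simulated counts. CPM use the TMM-scaled totals of tested genes, and the standard error is the absolute log2 fold change over the root of F. Ratios between genes are of CPM without division by length, chosen after seeing the data. Intervals from counts cover counting error only. Alternatives used other scalings and filters, DESeq2 1.42.0, limma-voom (limma 3.58.1), a replicate block and leaving out each library. Coordinates, transcript lengths (median of basic coding transcripts) and overlaps came from GENCODE M21 (GRCm38).

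By rule, full values went to genes past the threshold, up to 8 whose sexes did not overlap, the 3 largest fold changes in each direction and the most abundant gene of each role; of each pathway list, up to 4 by p. Psmb3, Psmb5, Psmb6, Psmd3 and the promoters shown were added after values were seen. The genes and lists were chosen with earlier results of these data known.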

Additional observations from a re-analysis of the deposited data

How the results depend on the processing

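The count of proteasome genes called was 0 under RLE, upper-quartile and library-size scaling, without a filter on low counts, with 10 counts required in every library of a sex, by DESeq2, by limma-voom and with a replicate block. Leaving out single libraries gave 0 to 8, with 8 without male replicate 1. Over all genes, 49 were called; the count was 116 without a filter, 78 with the replicate block, and between 23 and 415 with a library left out (415 without male replicate 1, 23 without male replicate 3, 32 without female replicate 2). The block changed no call of a proteasome gene (smallest adjusted p = 0.11). The labels do not say whether the replicate numbers pair the libraries. Deviations from the sex means correlated by 0.0297, 0.0343 and 0.048 between males and females of the same number. With other numbers the correlations ran from -0.0327 to -0.000634. All of these are small. Deviations from a sex mean sum to 0 over the libraries of that sex, so positive correlations at the same number force negative ones elsewhere. Their contrast therefore cannot show whether the libraries were paired. The male to female ratio of the share of counts in proteasome genes was 1.050, and 1.107 as a share of nuclear protein-coding counts without ribosomal protein genes (the cause was not tested); with a library left out it ran from 1.025 to 1.071. Of 238 recomputed fold changes of 17 named genes, 228 kept their sign and their side of the threshold, 5 passed it (all without male replicate 1) and 5 changed sign. Scaled by library size only, Psme1 was at -0.03 and Psmf1 at -0.04. Without male replicate 2, Psme1 was at -0.04, and without male replicate 1, Psmb7 was at 0.24 and Psmf1 at -0.22. With a library left out, Psme1 ran from -0.04 to 0.15, Psmb7 from -0.69 to 0.24 and Psmf1 from -0.22 to 0.22. Depth limits the rarest genes most: Psmb7 had 66 counts in all and a standard error of 0.43, Psma7 4671 and 0.13.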
